A study of Mus musculus with 4 samples.

Results

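Forkhead (Fox) genes encode transcription factors that share a DNA-binding forkhead domain. The 37 members described here were taken from a list of the family and located by symbol on the GENCODE vM1 annotation of mouse genome build mm9. Of these, 36 were among the 22208 protein-coding gene symbols of that annotation, and Foxl1 was annotated as a pseudogene. The locus of a gene comprised its body and 5 kb before its start. The members were divided into 22 genes of tissue-restricted classes, 12 genes of broadly used classes and 3 genes, Foxj1, Foxn1 and Foxn4, that the division names in neither. The tissue-restricted genes were Foxa1 to Foxa3, Foxb1, Foxb2, Foxc1, Foxc2, Foxd1 to Foxd4, Foxe1, Foxe3, Foxf2, Foxh1, Foxi1 to Foxi3, Foxl1, Foxl2, Foxq1 and Foxs1, and the broadly used genes were Foxj2, Foxj3, Foxk1, Foxk2, Foxm1, Foxn2, Foxn3, Foxo1, Foxo3, Foxp1, Foxp2 and Foxp4.

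The measurement was ChIP-seq of RYBP in FLK1+ mesoderm sorted from mouse embryoid bodies, the aggregates that embryonic stem (ES) cells form as they differentiate. All samples were wild type, carried the strain label C57Bl/6 X Sv129 and had day 3.75 as their stage label. For RYBP the study's methods name a day slightly after that. There were 2 ChIP replicates, made with an antibody against DEDAF (another name of RYBP), and 2 input samples that were not analysed here. The design text describes sorted FLK1+ PDGFRa- cells and 2 independent differentiations, but it speaks of SCL ChIP, and the samples were taken as RYBP ChIP from the antibody label and the title. Replicate 1 had 14794 peaks and replicate 2 had 18154, and the 22409 merged regions of the authors were the union of both lists. Peak positions carry no expression, so the labelled cell type could not be checked and nothing here says which members were transcribed. Read depth is unknown from the peak lists.

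RYBP is a subunit of non-canonical forms of Polycomb repressive complex 1 (PRC1), which place ubiquitin on histone H2A and are known to sit at CpG islands. Many genes of developmental regulators have long CpG islands that are Polycomb targets in ES cells, and forkhead genes of the tissue-restricted classes belong to the regulators that direct endoderm, mesoderm, neural and placode fates. Several of the broadly used forkhead factors, though not all, act in many tissues, for example downstream of insulin signalling (FOXO) or in the cell cycle (FOXM1).

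Nearly every locus of the 37 members was occupied by RYBP, in both classes. Of the 7 forkhead genes of the annotation outside the list of members, 4 were occupied. A merged region overlapped 36 of the 37 loci, a share of 97.3% (exact 95% interval 85.8% to 99.9%), beside 57.0% of all protein-coding loci. A region found in both replicates lay in 35 loci, or 94.6% (81.8% to 99.3%), beside 38.8% of all loci. Intervals cover counting error over genes only, and genes are not replicates. For this reason no p-value is given over genes. Differences between the classes were not tested and are given in each replicate, with the SD over both. By replicate, 35 loci had a replicate 1 peak, beside 43.8% of all loci, and 36 had a replicate 2 peak, beside 53.6%. The share of all loci with a merged region rose with CpG density within 500 bp of the most upstream start site. It was 96.6% with at least 9 CpG per 100 bp and 88.2% from 6 to 9, where all 13 and 12 members were occupied. From 3 to 6 it was 73.6%, beside 5 of 5 members, and under 3 it was 22.4%, beside 6 of 7. Among these 6 were Foxk2, Foxn3 and Foxp1, which have further start sites. At their CpG-richest start site they had 15.8, 3.1 and 9.39 CpG per 100 bp. The part of CpG density in occupancy was not tested.

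The windows around start sites gave the same picture as the loci. Within 2.5 kb of a start site, 35 members had a merged region, beside 54.0% of all genes, and 34 had one found in both replicates, beside 37.1%. The members without a region there were Foxi1, which encodes a regulator of ion-transporting cells of the inner ear and kidney, and Foxn1, which encodes the regulator of thymic epithelium. The member with a region in replicate 2 alone was Foxs1.

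Both classes were occupied almost throughout. Among the tissue-restricted genes 21 of 22 loci held a merged region (95.5%, exact 95% interval 77.2% to 99.9%), and among the broadly used genes 12 of 12 did (lower limit of the exact interval 73.5%). The 3 genes in neither class were occupied as well. With peaks of replicate 1 alone the tissue-restricted share was 90.9%, and with those of replicate 2 alone it was 95.5%, while all 12 broadly used loci had a peak in each. The difference, tissue-restricted minus broadly used, was -9.09 percentage points in replicate 1 and -4.55 in replicate 2 (mean -6.82, SD 3.21, n = 2). It amounted to 2 genes and 1 gene, Foxi1 in both replicates and Foxs1 in replicate 1.

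The sequence before the start site is shown for 5 members because they span the patterns found. Foxd1 had the strongest region by the smaller of its replicate −log10 q values, and Foxa2 the widest region. Foxo3 and Foxj2 are broadly used promoters under a wide and a narrow region, and Foxi1 is the locus without a region. Each is the 200 bases before the CpG-richest start site of the gene, in mm9, written 5′ to 3′ on the strand of the gene, with CpG dinucleotides in capitals. No annotated exon lies in these stretches. The 5 genes were picked after their values had been seen.
Foxd1, chr13:99124000-99124199, plus strand: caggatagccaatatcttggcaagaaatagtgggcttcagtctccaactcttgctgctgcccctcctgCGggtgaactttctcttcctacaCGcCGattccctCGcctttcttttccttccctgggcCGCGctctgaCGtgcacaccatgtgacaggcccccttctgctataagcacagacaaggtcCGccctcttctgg
Foxa2, chr2:147871685-147871884, minus strand: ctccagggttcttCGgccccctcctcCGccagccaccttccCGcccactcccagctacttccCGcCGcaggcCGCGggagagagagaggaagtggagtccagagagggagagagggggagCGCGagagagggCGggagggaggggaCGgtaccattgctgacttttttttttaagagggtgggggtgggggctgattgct
Foxo3, chr10:41996562-41996761, minus strand: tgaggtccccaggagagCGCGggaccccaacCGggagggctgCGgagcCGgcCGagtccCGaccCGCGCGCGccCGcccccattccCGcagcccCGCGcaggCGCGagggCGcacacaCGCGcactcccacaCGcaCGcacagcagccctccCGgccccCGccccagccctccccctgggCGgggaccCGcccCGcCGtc
Foxj2, chr6:122769732-122769931, plus strand: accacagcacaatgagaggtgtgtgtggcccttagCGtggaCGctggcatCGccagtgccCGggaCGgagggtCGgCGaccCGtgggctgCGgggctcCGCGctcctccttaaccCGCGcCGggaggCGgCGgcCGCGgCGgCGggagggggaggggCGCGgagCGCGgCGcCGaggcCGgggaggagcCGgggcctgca
Foxi1, chr11:34108090-34108289, minus strand: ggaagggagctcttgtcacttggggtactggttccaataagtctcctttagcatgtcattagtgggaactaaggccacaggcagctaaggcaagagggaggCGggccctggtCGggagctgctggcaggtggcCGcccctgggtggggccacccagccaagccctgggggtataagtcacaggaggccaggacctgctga
The 5 stretches hold 8, 11, 28, 28 and 3 CpG dinucleotides in that order. All 200 bases of the first 4 lay under a merged region and 0 bases of the Foxi1 stretch did. The Foxd1 stretch, at the member with the strongest region, thus had fewer CpG dinucleotides than the Foxj2 stretch. Over the 37 members the count in this stretch ran from 2 to 41, with a median of 10 in the tissue-restricted and 28 in the broadly used genes.

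The classes differed in the length of DNA covered. The median tissue-restricted locus had 4536.5 bp under merged regions, the median broadly used locus had 1465.5 bp, and the 3 other genes had a median of 2959 bp. The median over all protein-coding loci was 419 bp. The tissue-restricted medians were 3944.5 bp in replicate 1 and 3779.5 bp in replicate 2, against 1436.5 bp and 1418.5 bp for the broadly used genes. The difference between the classes was thus 2508 bp and 2361 bp (SD 104 bp, n = 2), larger than the spread between replicates. Single genes of both classes overlapped, since 17 of 22 tissue-restricted loci lay above the broadly used median and 2 of 12 broadly used loci, Foxp4 and Foxo3, lay above the tissue-restricted one.

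At least 3000 bp were covered in 19 of the 37 loci, or 51.4% (exact 95% interval 34.4% to 68.1%), beside 9.04% of all loci. These were 14 of 22 tissue-restricted genes (63.6%, 40.7% to 82.8%), 4 of 12 broadly used genes (33.3%, 9.92% to 65.1%) and Foxj1. The threshold of 3000 bp was chosen after the data had been seen, and the intervals of both classes overlap. Covered length put 22 members above 90% of all protein-coding loci.

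Locus length differed in the opposite direction. The median tissue-restricted locus was 7761.5 bp long and the median broadly used locus 76145.5 bp, beside 20480 bp over all genes. RYBP regions took up a median of 63.3% of a tissue-restricted locus and 2.71% of a broadly used one, beside 0.785% over all genes. At Foxd3, which encodes a neural crest and stem cell regulator, 96.0% of the locus was covered, and at Foxa1 92.5%. At Foxn3 the share was 0.439%, the lowest of the occupied members. The part of gene length in these shares was not tested.

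A window of the same size for every gene, reaching 5 kb to each side of the CpG-richest start site, was added after the data had been seen. Most tissue-restricted genes end inside it and the broadly used genes do not. It held a median of 6317 bp under merged regions for the tissue-restricted genes and 1465.5 bp for the broadly used ones, beside 347 bp for all genes. In replicate 1 the medians were 5306.5 bp and 1436.5 bp, and in replicate 2 they were 4634.5 bp and 1418.5 bp (difference 3870 bp and 3216 bp, SD 462 bp, n = 2). Of the tissue-restricted genes, 12 of 22 lay above Foxo3, the highest broadly used gene with 5602 bp, and 0 of 12 broadly used genes lay above the tissue-restricted median. In replicate 2 alone the classes overlapped more, with 9 tissue-restricted genes above Foxo3 and 2 broadly used genes above the tissue-restricted median.

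**Figure D1:**
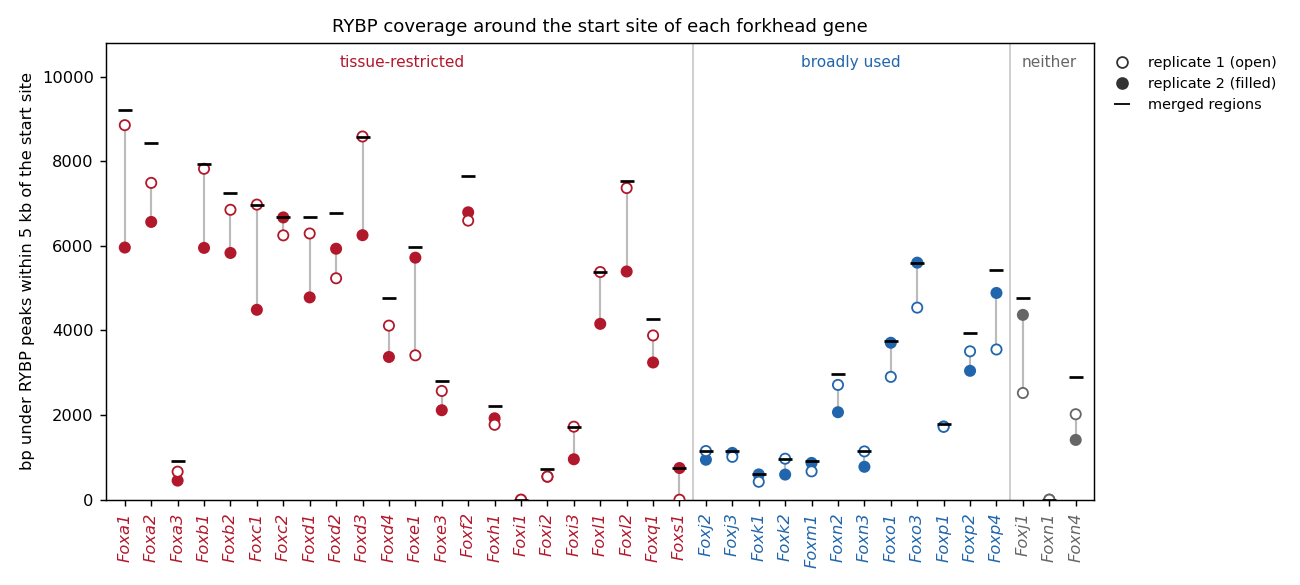
Base pairs under RYBP peaks within 5 kb of the start site (y axis, bp) for each of the 37 forkhead genes (x axis), with replicate 1 peaks as open points, replicate 2 peaks as filled points and merged regions as dashes. The tissue-restricted genes reach up to Foxa1 with 9215 bp, and 12 of the 22 lie above every broadly used gene, whereas the broadly used genes range from 598 bp at Foxk1 to 5602 bp at Foxo3.

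The extra length lay on both sides of the start site. At the start site itself 86.4% of tissue-restricted and 91.7% of broadly used genes were covered by a merged region, beside 41.0% of all genes. At 5 kb upstream 36.4% of tissue-restricted genes (8 of 22) were still covered and 0 of 12 broadly used genes were, beside 2.47% of all genes. At 5 kb downstream 31.8% (7 of 22) and again 0 of 12 were covered, beside 2.51%. With 0 of 12 genes the share could still be up to 26.5% by the exact interval. In replicate 1 the tissue-restricted shares at 5 kb upstream and downstream were 22.7% and 31.8%, and in replicate 2 they were 31.8% and 22.7%.

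**Figure D2:**
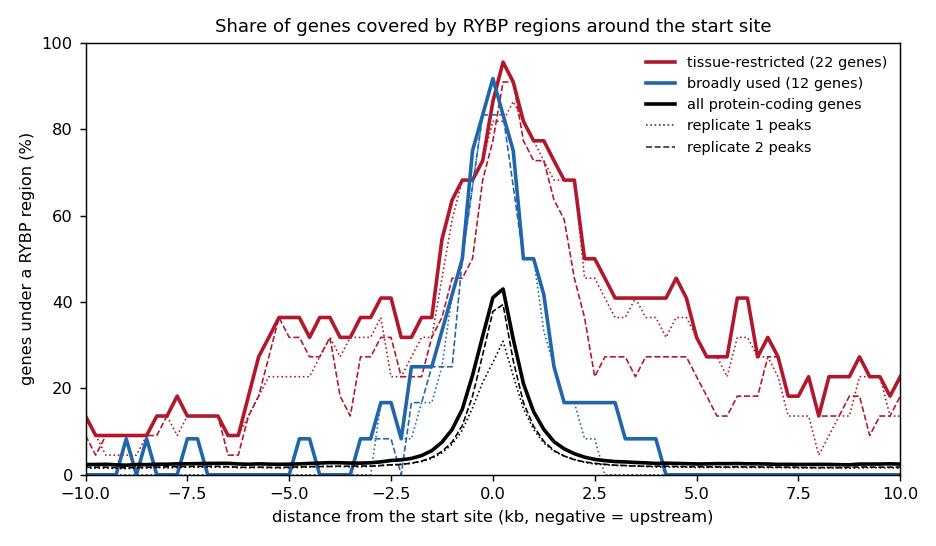
Share of genes (y axis, %) lying under a RYBP region at each distance from the start site (x axis, kb, upstream negative), for tissue-restricted, broadly used and all protein-coding genes, with merged regions as thick lines, replicate 1 peaks dotted and replicate 2 peaks dashed. The curves of both forkhead classes reach similar heights at the start site, 86.4% and 91.7%, and only the tissue-restricted curve stays above 20% at 5 kb on both sides.

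The 2 widest regions lay at Foxa2 and Foxa1, which encode pioneer factors of endoderm. The Foxa2 region at chr2:147862518-147875114 was 12597 bp wide, had 2 peaks in each replicate and reached 4.12-fold enrichment in replicate 1 and 4.64-fold in replicate 2 (pile-up over local background, as the authors' caller gave it). The Foxa1 region at chr12:58639144-58648308 was 9165 bp wide, with 3.86 and 4.90. A further region of 3389 bp lay upstream of Foxa1, also found in both replicates. Both genes thus carried very wide regions of moderate height. Foxa3, a liver and gut factor of the same class, had a region of 696 bp with 3.24 and 3.69, so the class was not uniform.

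Foxc1, Foxc2, Foxl1 and Foxf2, genes of mesoderm and mesenchyme, were also covered over several kilobases. Foxc1 and Foxc2 encode factors of paraxial mesoderm and of vessels. Foxc1 had 3 regions, all found in both replicates, and its highest peak was enriched 4.34-fold in replicate 1 and 5.45-fold in replicate 2. The region over Foxc2 at chr8:123638726-123647211 was 8486 bp wide, with 4.03 and 5.14, and it reached into the upstream part of the neighbouring Foxl1 locus, so that it counts for both genes. Foxl1, which encodes a factor of gut mesenchyme, had a further region over its own start site (chr8:123651688-123654388) with 4.34 and 4.45. Foxf2, of gut and palate mesenchyme, had 4.36 and 5.98 and a region of 6504 bp. Foxs1, of neural crest derivatives and mural cells, was the exception, with 1 peak at chr2:152758284-152759032 in replicate 2 (fold enrichment 3.59, −log10 q 2.13) and no peak in replicate 1.

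Foxb and Foxd genes, several of them regulators of the neural tube, neural crest and kidney stroma, had wide regions throughout. The Foxb1 region was 8091 bp and the Foxb2 region 7255 bp wide, enriched 3.82-fold and 3.65-fold in replicate 1 and 4.66-fold and 4.67-fold in replicate 2. Foxd1, a kidney stroma factor, carried the strongest region of all members by the smaller replicate −log10 q, at chr13:99121571-99127378. It had 5.25 and 5.87, and −log10 q of 8.62 in replicate 1 and 10.8 in replicate 2. By fold enrichment other members were higher in each replicate, among them Foxl2 in both. Foxd3 had a region of 8318 bp (chr4:99316751-99325068) with 4.08 and 5.93. Foxd2 had 3 regions, of which 2 were found in both replicates, with 4.37 and 5.27 at the highest. Foxd4 had a region of 4756 bp and 3.98 and 4.62, and its start site had 2.30 CpG per 100 bp. In replicate 2 the highest peaks of the Foxd4 and Foxa1 regions lay past the 3′ end of the gene, and the highest peaks inside these loci had 4.45 and 4.75.

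The remaining tissue-restricted genes ranged from strong to empty. Foxq1 and Foxl2, the latter a regulator of ovary and eyelid, were among the strongest, enriched 5.25-fold and 5.27-fold in replicate 1 and 5.36-fold and 5.93-fold in replicate 2. Their regions at chr13:31648753-31652273 and chr9:98854222-98860171 were 3521 bp and 5950 bp wide. Together with Foxd1 they were the 3 members with at least 5 in both replicates. Foxe1, the thyroid factor, had 4.87 and 5.34, and Foxe3, the lens factor, 4.23 and 4.60. The Foxi3 region was narrow, at 1726 bp, but reached 4.73 and 4.56.

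Foxh1, Foxi2 and Foxi1 lay at the low end of this class. Foxh1, the partner of SMAD2 and SMAD3 in Nodal signalling, had 1 region of 1376 bp that began 44 bp inside the gene and lay on its coding exons, with 3.28 and 3.37. Foxi2 had a region of 737 bp, 105 bp from its start site, with 2.93 and 4.11. Foxi1 had no region. The nearest merged region to its locus was 101673 bp away, and the nearest replicate 2 peak 210828 bp. Peak lists hold only called peaks, so weaker RYBP signal at Foxi1 or in replicate 1 at Foxs1 cannot be seen from them.

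Among the broadly used genes the widest regions were at Foxp4, Foxo3 and Foxp2. FOXO factors are held in the cytoplasm by insulin and PI3K signalling. The Foxo3 region at chr10:41993528-41998755 was 5228 bp wide and enriched 3.94-fold in replicate 1 and 5.59-fold in replicate 2, and the Foxo1 region was 3752 bp wide with 3.88 and 4.64. FOXP factors act in lung, brain and lymphoid development. Foxp4 had 4 regions, of which the widest (chr17:48057305-48062721, 5417 bp) had 4.11 and 5.23. Foxp2 had a region of 3951 bp (chr6:14848109-14852059) that reached 5.32 in replicate 1, the highest value of any member there, and 4.45 in replicate 2. Foxp1 was covered over 1779 bp with 3.45 and 4.31.

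In the other broadly used genes the widest region measured 598 bp to 2403 bp and lay over or near a start site. Foxk1 and Foxk2, which encode regulators of metabolism and autophagy genes, had regions of 598 bp and 971 bp, yet Foxk1 (chr5:142877307-142877904) reached 3.93 in replicate 1 and 5.61 in replicate 2. Foxk2 had 3.92 and 4.14. Foxn2 had the widest of these (chr17:88838980-88841382, 2403 bp), with 4.59 and 5.16, and the lower of its −log10 q values, 5.20, was the highest of the class. Foxj2 and Foxj3 had 3.14 and 3.10 in replicate 1 and 4.06 and 4.27 in replicate 2. Foxm1, a regulator of mitotic genes, had 2.99 and 4.40, with a −log10 q of 1.38 in replicate 1. The Foxn3 region was intronic, 265 bp from a start site, with 3.15 and 4.78.

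The 3 genes in neither class differed from one another. Foxj1, the regulator of motile cilia, had 3 regions, and the one over its start site (chr11:116194608-116197212) was 2605 bp wide with 3.15 and 4.34. Another, of 1607 bp (chr11:116198261-116199867), lay upstream and was found in replicate 2 alone. Foxn4, of retinal and spinal progenitors, had 1 region of 2893 bp (chr5:114722803-114725695) with 3.74 and 4.77. Foxn1 had 3 regions away from its start site, and its highest peak lay over the 3′ coding exons (chr11:78171982-78173099), with 4.45 in replicate 1 and 3.70 in replicate 2. The nearest of them was 4998 bp from the start site.

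Peak height separated the classes less than covered length did. The median of the highest fold enrichment per locus was 4.17 for 20 tissue-restricted and 3.90 for 12 broadly used genes in replicate 1, and 4.67 for 21 and 4.54 for 12 in replicate 2. Over all loci with a peak it was 3.53 and 3.92. The difference between the classes was 0.274 and 0.127, whereas the class medians themselves moved between replicates with an SD of 0.351 (tissue-restricted) and 0.455 (broadly used). The medians of the highest −log10 q, on another scale, differed by 1.44 in replicate 1 and 1.94 in replicate 2. Those class medians moved between replicates with an SD of 1.53 (tissue-restricted) and 1.17 (broadly used).

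Of the 35 members with a peak in each replicate, 32 had the higher fold enrichment in replicate 2, with a median ratio of 1.22. The 3 exceptions were Foxi3, Foxn1 and Foxp2. The study lists more mapped reads for replicate 1, the library with fewer peaks, and its part in this shift was not tested. Across members the replicates resembled each other more in covered length than in height. Pearson's r across genes was 0.913 (Spearman's rho 0.939, n = 37) for covered bp and 0.558 (0.537, n = 35) for fold enrichment, as a description of genes that share both libraries.

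**Figure D3:**
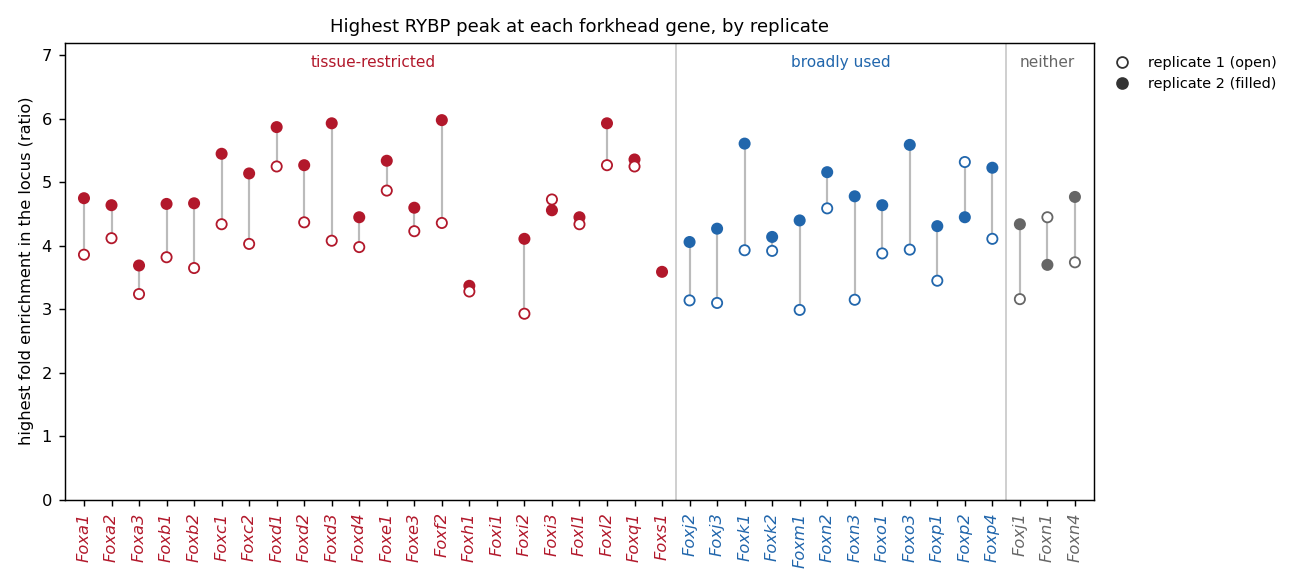
Highest fold enrichment (y axis, ratio) of a RYBP peak in each forkhead locus (x axis), with replicate 1 as open and replicate 2 as filled points joined by a line. The classes overlap in both replicates, and 32 of 35 members have the higher value in replicate 2, while Foxi1 has no point and Foxs1 has a replicate 2 point alone.

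Counting regions rather than genes, 59 merged regions overlapped a member locus. Both replicates contained 44 of them, or 74.6%, beside 44.2% of all merged regions. Replicate 1 was the lone source of 6 further regions and replicate 2 of 9. The regions lay over a member's start site in 34 cases, over coding sequence in 31, in introns alone in 4 and outside the gene body in 15. A start site of another protein-coding gene lay in 2 regions, those over the start sites of Foxm1 and Foxq1. Their median width was 3090.5 bp at tissue-restricted, 1143 bp at broadly used and 1298 bp at the other genes, beside 767 bp over the whole list. At least 3000 bp wide were 17 of 34 regions at tissue-restricted genes, 4 of 18 at broadly used genes and 0 of 7 at the others, beside 5.81% of all regions. Members had 0 to 4 regions each, with a median of 1.5 in tissue-restricted and 1 in broadly used loci. The medians were equal with replicate 1 peaks alone (1 and 1), with −log10 q of at least 2 (1 and 1) and with 20 kb upstream (2 and 2). With replicate 2 peaks alone they were 2 and 1.

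Where members neighbour each other, most regions of the cluster overlapped the loci of the members. From Foxq1 through Foxf2 to Foxc1 on chromosome 13, 10 merged regions covered 9.69% of 257466 bp, and 7 of the 10 were found in both replicates. Of the 10 regions, 3 lay outside the loci of the members. In the other clusters every region overlapped a member locus. Foxc2 and Foxl1, 9048 bp apart on chromosome 8, had 69.2% of 17859 bp covered. Foxd2 and Foxe3, 16178 bp apart on chromosome 4, had 40.7% of 24773 bp covered. In replicates 1 and 2 these shares were 8.27% and 7.79%, 66.8% and 58.6%, and 29.6% and 35.4%.

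In most tissue-restricted genes the regions reached over the whole protein-coding part. The coding sequence lay entirely under merged regions in 14 of the 21 tissue-restricted genes that have one annotated (Foxl1 has none), in 0 of 12 broadly used genes and in 0 of the 3 others, beside 2.82% of all genes. At least 50% of it was covered in 18 of the 21 tissue-restricted genes. In the broadly used genes the highest share was 31.7%, at Foxo1, and 7 of 12 had none. Exon number moved with this result, since 12 of the 21 tissue-restricted genes have 1 exon and the broadly used genes have 3 to 26.

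Among genes with 1 exon, 10 of the 12 forkhead genes (83.3%) were fully covered, beside 9.06% of 2880 such genes. With at least 6 CpG per 100 bp at the start site as well, the counts were 8 of 9 forkhead genes (88.9%) and 53.6% of 345 genes. The share among all such 1-exon, CpG-rich genes was thus also far above 2.82%. Coverage of the coding sequence was examined after other values had been seen.

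**Figure D4:**
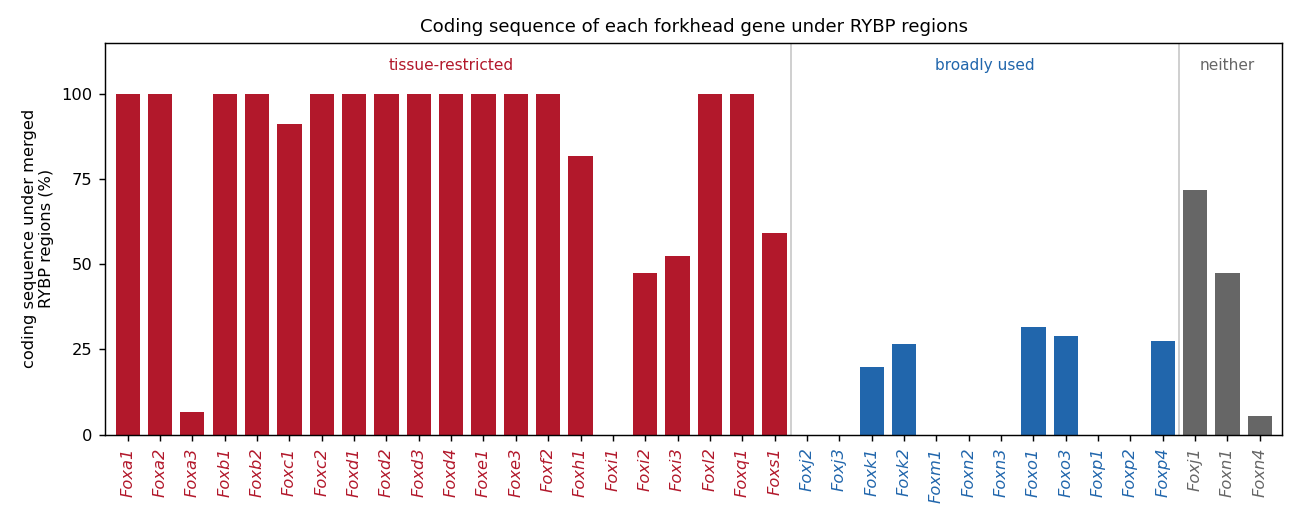
Share of the coding sequence (y axis, %) under merged RYBP regions for the 36 forkhead genes with an annotated coding sequence (x axis), coloured by class. Bars reach 100% in 14 tissue-restricted genes, and the highest bar among the broadly used genes is Foxo1 at 31.7%.

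CpG content did not order the classes as covered length did. Within 500 bp of the most upstream start site the tissue-restricted genes had a median of 7.29 CpG per 100 bp and the broadly used genes 10.1, beside 4.10 over all genes. GC content was 61.8% and 66.8%, beside 54.8%. At the CpG-richest start site the medians were 7.29 and 10.8, and 0 of 22 tissue-restricted genes lay above the broadly used median. The order turned within 1 kb of the most upstream start site, where the tissue-restricted genes had 7.37 and the broadly used genes 6.80 CpG per 100 bp. In that window Foxk2, Foxn3 and Foxp1 had 1.1, 1.15 and 1.15. The 1 kb window was not measured around the CpG-richest start site.

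In the upper ranges of CpG density the tissue-restricted genes had the higher medians of covered length. With at least 9 CpG per 100 bp at the most upstream start site, 6 tissue-restricted genes had a median of 6665 bp covered and 7 broadly used genes 2966 bp, beside 1490.5 bp over 2466 genes. From 6 to 9 CpG per 100 bp the medians were 4156.5 bp (8 genes), 2551.5 bp (2 genes) and 1018 bp (4841 genes). Under 3 CpG per 100 bp they were close, at 1376 bp (3 genes, 1 of them without a region) and 1142 bp (3 genes), beside 0 bp over 9684 genes. These 3 broadly used genes were Foxk2, Foxn3 and Foxp1, with 15.8, 3.1 and 9.39 CpG per 100 bp at their CpG-richest start site. From 3 to 6 at the most upstream start site there was no broadly used gene. Among genes under 5000 bp long, 18 of 19 tissue-restricted loci were occupied and had a median of 4392 bp covered, beside 31.4% of 5775 genes with a median of 0 bp. Across the 22 tissue-restricted genes CpG density at the CpG-richest start site and bp covered within 5 kb of it had a Spearman's rho of 0.610, and across the 12 broadly used genes -0.119. These are descriptions across genes, and the part of CpG density was not tested.

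**Figure D5:**
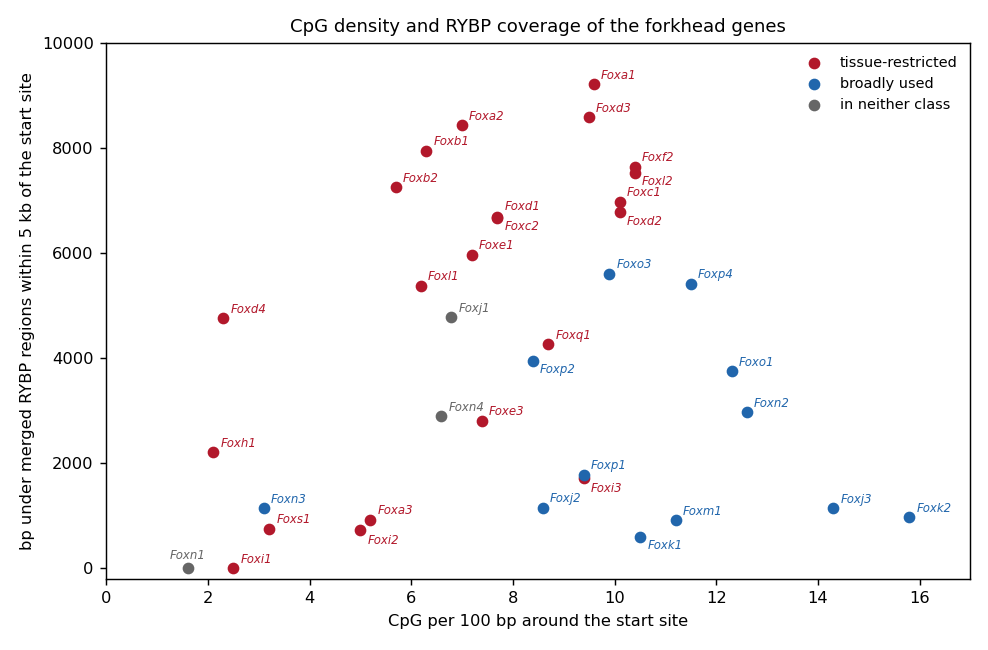
Base pairs under merged RYBP regions within 5 kb of the CpG-richest start site (y axis) against CpG per 100 bp there (x axis), 1 point per forkhead gene, coloured by class. Foxk2 and Foxj3 have the highest CpG density, 15.8 and 14.3, with 971 bp and 1144 bp covered, whereas Foxa1 with 9.59 has 9215 bp and Foxd4 with 2.30 has 4756 bp.

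Sequence motifs were counted from 500 bp before to 100 bp after the most upstream start site, on both strands. The forkhead core TGTTTAC, which reads GTAAACA from the opposite strand, was present in 3 of 37 members, Foxa1, Foxo1 and Foxp2, beside 6.79% of all genes. The core of YY1, the factor that gave RYBP its name, AANATGGC, or GCCATNTT from the opposite strand, was present in 1 member, Foxk1, beside 11.6% of all genes. With the CpG-richest start site these counts were 2 members (6.15% of all genes) and 2 members (12.2%). Such matches are descriptions of letters in a window and not sites of binding.

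Genes of pathways that act through forkhead factors were occupied in most cases. Of 14 genes of Nodal signalling, in which FOXH1 acts, 14 loci held a merged region and 13 one found in both replicates, beside 57.0% and 38.8% of all protein-coding loci. Of 18 genes of PI3K signalling and FOXO function, 17 held a merged region, all but Pik3ca, and 13 one found in both replicates (94.4% and 72.2%, beside the same 57.0% and 38.8%). A further 7 forkhead genes of the annotation lie outside the list of members. Of these 4 held a merged region, or 57.1%, and 3 held one found in both replicates, or 42.9%, which is near the shares over all loci. On the X chromosome lie 3 of the 7.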

How the data were processed

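RYBP ChIP-seq peak lists of 2 replicates and their merged list were analysed. Groups and replicate numbers came from the labels. Per the submitters' processing notes, Bowtie 1.1.2b, MACS2 2.0.10 and bedtools were used with build mm9. The authors called peaks in each replicate separately. Their deposited lists give, per peak, a score, a fold enrichment (ratio of pile-up to local background) and the p-value and q-value as −log10. The merged list holds positions alone.

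Starts of replicate 2 were moved by 1 bp, after which the union of both lists equalled all 22409 merged regions. Peaks were set against GENCODE vM1 genes on 20 chromosomes, with an overlap of at least 1 bp. Sequences were read from the mm9 genome. Python 3.11.15, pandas 2.3.3, scipy 1.17.1 and pysam 0.24.0 were used, and the overlap script was first tested on simulated regions. Named regions were the 3 widest and 3 strongest per class, by the smaller replicate −log10 q, and members with peaks in 1 replicate. Regions at Foxd3 and Foxl2 were located as well, after their values were seen. Members and lists were chosen with earlier results of these data known. Alternatives were stricter thresholds and overlaps, other windows, single replicates and the omission of neighbouring members. No test was made, and class differences are given per replicate.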

Additional observations from a re-analysis of the deposited data

How the results depend on the processing

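Across 85 alternatives for 17 values, 64 stayed within 1.5 times the count or within the spread between replicates. The alternatives for CpG and GC content had no replicate spread to be set against and are not among the 64. Neither are those with −log10 q in place of fold enrichment, which are on another scale. None turned the sign of the class difference in loci with a merged region or in fold enrichment. For regions found in both replicates, the order of the class shares did turn with −log10 q of at least 2. The counts fell from 20 to 18 of 22 tissue-restricted loci and from 12 to 9 of 12 broadly used loci. All 42 alternative counts of members stayed within 1.5 times, also the fall from 12 to 9. The counts lay near the full size of the classes, so this rule was easily met. Leaving out replicate 1 or 2 gave 20 to 21 tissue-restricted and 12 broadly used loci, with a difference of -9.09 to -4.55 percentage points. Covered bp was then 3779.5 to 3944.5 for tissue-restricted and 1418.5 to 1436.5 for broadly used genes. The tissue-restricted median was 4156.5 bp with −log10 q of at least 2, 5306.5 bp with 20 kb upstream, 6317 bp in the fixed 5 kb window and 3994 bp with regions found in both replicates. Broadly used genes moved to 2285.5 bp and 2 regions per locus with 20 kb upstream, where tissue-restricted genes had 2 as well. With −log10 q in place of fold enrichment the class difference was 1.44 and 1.94. Within 1 kb of the most upstream start site, CpG per 100 bp was 7.37 (tissue-restricted) and 6.80 (broadly used), and GC 59.6% and 59.2%. The CpG order was opposite to that within 500 bp of the same site. Within 500 bp of the CpG-richest start site CpG was 7.29 and 10.8, and GC 63.1% and 68.5%. The fixed window, the regions in both replicates and the CpG-richest start site were chosen after seeing the data. No paired analysis was possible because no result comes from a test between sample groups and the inputs were not analysed here; class differences are within replicates. Peak lists without depth cannot show signal below the threshold of the caller. The causes of these shifts were not tested.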
